A study of Homo sapiens with 45 samples.

Results

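The 9 miRNA strands described here, hsa-miR-532-5p, hsa-miR-532-3p, hsa-miR-660-5p, hsa-miR-660-3p, hsa-miR-362-5p, hsa-miR-362-3p, hsa-miR-500a-3p, hsa-miR-501-3p and hsa-miR-502-3p (the species prefix is dropped below), come from hairpins inside 1 intron of CLCN5, the X-linked gene of a chloride/proton exchanger of kidney endosomes. They were taken by name from the 2817 mature miRNAs counted in the series, with sequence-variant entries added to their miRNA. Small RNA was sequenced from HCT116, a human colorectal carcinoma line, and from its knockout derivatives, all of 1 epithelial line. The whole-cell libraries were made from wild-type (WT) HCT116 and from lines that were AGO1-/-, AGO2-/-, AGO1-/- with AGO2-/- (AGO1/2-null), those with AGO3-/- as well (AGO1/2/3-null), TNRC6A-/-, TNRC6B-/- or both of these (TNRC6A/B-null). Argonaute-bound RNA was immunoprecipitated (IP) with AGO1 antibody 2A7 from WT and AGO1-null cells, with AGO2 antibody 3148 from WT and AGO2-null cells, and with a pan-AGO antibody from WT, AGO1/2-null and AGO1/2/3-null cells. The plots write KO where the text writes null. Each of the 15 groups had 3 biological replicates. The labels number the replicates and name no clones, so the p-values measure only the spread between these samples, and a knockout cannot be told apart from other differences of its line.

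A miRNA hairpin is cut from its transcript, often an intron, by DROSHA and then by DICER into a duplex of a 5p and a 3p strand. One strand is usually kept in an Argonaute protein (AGO1 to AGO4) and guides it to mRNAs through its seed, bases 2 to 8, while the other strand is mostly lost. TNRC6 proteins bind Argonaute and recruit the machinery that represses the mRNA. Hairpins of 1 cluster can be cut from the same primary transcript, and their strands can nevertheless reach different levels.

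GENCODE v29 places the hairpins on the plus strand of chromosome X (GRCh38), within 50003148 to 50014683, a span of 11536 bases. Their order is MIR532, MIR188, MIR500A, MIR362, MIR501, MIR500B, MIR660 and MIR502. All 8 lie in the CLCN5 intron from 49925315 to 50042315, which follows exon 3 of transcripts CLCN5-202 and CLCN5-203 and exon 2 of CLCN5-205, and they overlap 0 CLCN5 exons. Mature sequences from RefSeq (GRCh38.p14) were matched to 8 of the 9 strands. They are shown 5′ to 3′ with the seed in capitals, because the last 3 are near copies of each other and the first pair are the arms of the hairpin that holds the most abundant strand in WT whole-cell RNA.
miR-532-5p: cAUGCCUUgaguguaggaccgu
miR-532-3p: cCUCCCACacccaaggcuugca
miR-660-3p: aCCUCCUGugugcauggauua
miR-362-5p: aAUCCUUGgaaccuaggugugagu
miR-362-3p: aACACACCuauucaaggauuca
miR-500a-3p: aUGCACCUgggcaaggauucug
miR-501-3p: aAUGCACCcgggcaaggauucu
miR-502-3p: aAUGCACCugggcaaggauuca

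The miR-501-3p and miR-502-3p strands share the seed AUGCACC and differ by 2 substitutions, C9U and U22A, counted from 1 at the 5′ end of miR-501-3p. The miR-500a-3p strand begins 1 base later than miR-502-3p and shares a run of 20 bases with it, so its seed is UGCACCU. Among the other strands of the cluster, miR-500b-5p has the seed of miR-362-5p. The sources used here do not say how reads matching several entries were counted, and the split of reads among miR-500a-3p, miR-501-3p and miR-502-3p is uncertain. The reads of miR-501-3p stood in 4 variant entries and in no plain one.

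In WT whole-cell RNA the cluster was a minor part of the miRNA pool, at 0.129% ± 0.0112 of miRNA counts (SD, n = 3). The most abundant strand was miR-532-3p, with 175, 179 and 150 reads in the 3 libraries, which placed it at rank 143 among the miRNAs. The partner strand miR-532-5p had 68, 54 and 88 reads, and miR-660-5p had 47, 63 and 63. Those 2 strands did not separate from each other. Next came miR-501-3p with 17, 21 and 18 reads, miR-500a-3p with 15, 11 and 15, miR-502-3p with 16, 11 and 11, miR-362-5p with 6, 17 and 10, and miR-362-3p with 4, 9 and 8. These last 4 overlapped their neighbours in that order. The star strand miR-660-3p had 1, 0 and 3 reads. Over all 45 libraries the total of counted RNAs ran from 1783590 to 9860313 and the 9 strands together from 19 to 12306 reads, so single reads decide the values of the low strands in some groups.

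The summed level of the 9 strands moved with Argonaute and TNRC6 status. On the scale of reads per 1000000 of all counted RNAs (RPM) it was 67.3 ± 3.88 in WT (SD, n = 3 here and below). Loss of AGO1 or of AGO2 left 34.5 ± 10.5 and 36.7 ± 9.94, loss of both left 12.7 ± 0.803, and loss of AGO3 as well left 6.31 ± 1.85. In the TNRC6A, TNRC6B and TNRC6A/B knockouts it was 132 ± 21.3, 111 ± 5.80 and 130 ± 0.803. Every one of these 7 knockouts stood apart from WT, and in each the exact two-sided permutation p was 0.1, the smallest that 3 against 3 libraries can give. In these bulk samples, fewer cells holding a strand and less of it per cell cannot be told apart.

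Much of that movement was shared by the summed miRNA counts, though in the Argonaute knockouts less so by the median miRNA. Mature miRNAs made up 5.25% ± 0.476 of all counts in WT and 2.64% ± 0.334 where AGO1 was lost. In AGO1/2/3-null they were 1.74% ± 0.386 and in TNRC6A/B-null 10.1% ± 2.68. Scaled by the total of all counted RNAs, the median log2 fold change over single miRNAs was -0.34 to -0.26 in the Argonaute knockouts. It was 0.55 to 0.79 in the TNRC6 knockouts. As a share of miRNA counts the 9 strands were at 0.129% ± 0.0233 in AGO1-null and 0.134% ± 0.0311 in TNRC6A/B-null, both overlapping WT. They were at 0.0982% ± 0.0108 in AGO2-null, 0.0546% ± 0.00312 in AGO1/2-null and 0.0359% ± 0.00239 in AGO1/2/3-null, all apart from WT (exact p = 0.1 each). Against the sum of miRNA counts, then, the cluster as a sum was 2.36-fold lower in AGO1/2-null and 3.58-fold lower in AGO1/2/3-null.

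**Figure D1:**
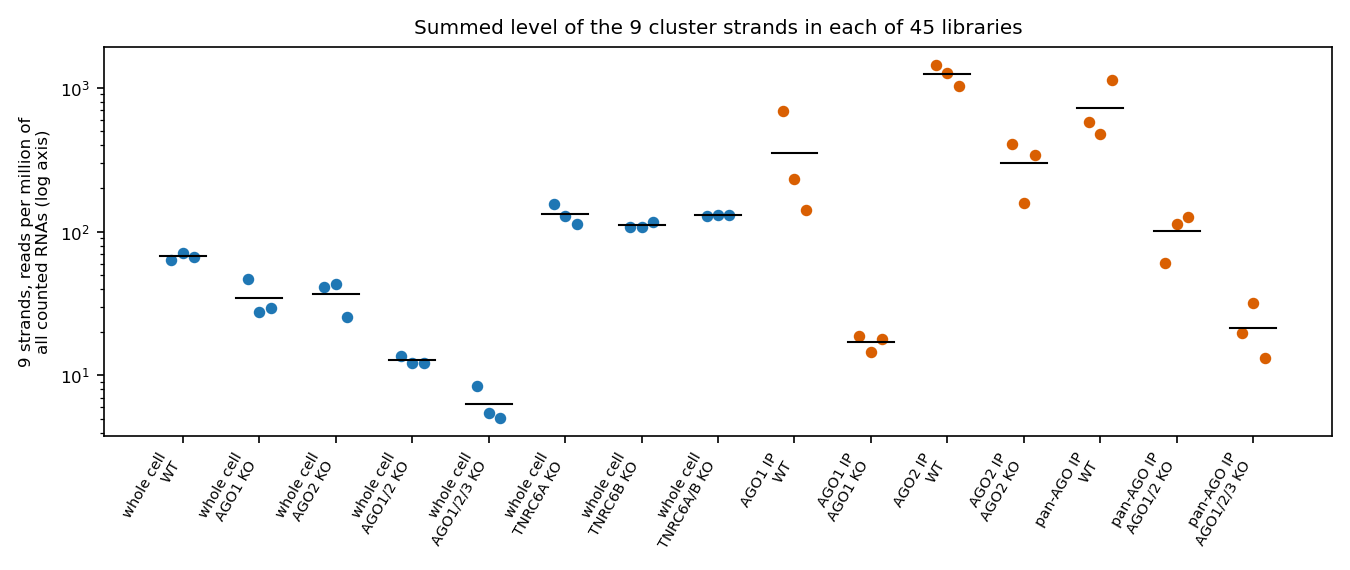
Summed RPM of the 9 strands (reads per 1000000 of all counted RNAs, log axis) in each library, with 3 points per group and a line at the mean; whole-cell groups are blue and IP groups orange. Whole-cell means run from 6.31 in AGO1/2/3-null to 132 in TNRC6A-null, and IP means from 17.1 in the AGO1 IP of AGO1-null to 1246 in the AGO2 IP of WT.

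Each strand was tested in edgeR's quasi-likelihood test on miRNA counts with TMM scaling (a scaling to the bulk of miRNAs in each library), with Benjamini-Hochberg adjustment over all miRNAs tested and a threshold of 0.05. The change of a strand is given as log2 fold change ± SE, from 3 libraries a group. In whole-cell RNA all 9 strands were among the 1990 miRNAs tested.

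Loss of AGO1 or of AGO2 alone moved no strand past the threshold. In the AGO1-null cells edgeR called 0 of 9, where 10.4% of all miRNAs were called (6.53% higher and 3.82% lower). In AGO2-null it also called 0 of 9, where 0.804% were called (0.201% higher and 0.603% lower). In each of the 2 comparisons 2 strands had an unadjusted p under 0.05, and DESeq2 called 1, miR-532-3p. The number of all miRNAs that DESeq2 called is not given here. The largest strand, miR-532-3p, was at 32, 35 and 27.3 RPM in WT and at 15.6, 12.1 and 8.47 in AGO1-null, with no overlap. Its log2 fold change was -0.85 ± 0.29 in AGO1-null (edgeR adjusted p = 0.0559) and -0.86 ± 0.30 in AGO2-null (adjusted p = 0.169). Without AGO1-null replicate 2 it passed in AGO1-null, at -1.11 with an edgeR adjusted p of 0.0386. Scaled by the total of all counted RNAs it was -1.37 in AGO1-null (edgeR adjusted p = 0.00105) and -1.18 in AGO2-null (0.0223).

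Joint loss of AGO1 and AGO2 lowered 4 of the 9 strands and raised 0, where 8.94% of all miRNAs were called (2.86% higher and 6.08% lower). The median over the 9 strands was -1.33, beside 0.23 over all miRNAs tested. In RPM, miR-532-3p was at 4.81, 4.29 and 3.07 in AGO1/2-null, and miR-532-5p went from 12.4, 10.6 and 16 in WT to 2.5, 1.23 and 1.1. Both arms of that hairpin thus lay wholly below WT. The fold changes were -2.36 ± 0.33 for miR-532-3p (edgeR adjusted p = 1.16e-06) and -2.42 ± 0.43 for miR-532-5p (adjusted p = 7.78e-05), the latter -3.07 without AGO1/2-null replicate 1.

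The miR-660-5p strand fell less, from 8.59, 12.3 and 11.5 to 2.69, 2.66 and 2.19 RPM, a change of -1.51 ± 0.39 (edgeR adjusted p = 0.00769). Scaled by the miRNA total alone it was -0.94, with an adjusted p of 0.0856. The miR-500a-3p strand had 0, 1 and 2 reads in AGO1/2-null and a fitted change of -2.96 ± 0.69 (adjusted p = 0.00242), which rests on those few reads and became -4.07 without AGO1/2-null replicate 3. The near copy miR-501-3p did not pass, with 6, 8 and 14 reads in AGO1/2-null and a WT count of 17, 21 and 18. The split of reads between these copies is uncertain, and the difference between them was not tested.

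Further loss of AGO3 went with lower levels again. In AGO1/2/3-null against WT 5 of 9 strands were lower and 0 higher, with 17.1% of all miRNAs called (6.38% higher and 10.8% lower), and the median over the 9 was -2.17, beside 0.18 over all miRNAs. Only 3, 3 and 2 reads of miR-532-3p remained, and its change was -4.91 ± 0.44 (edgeR adjusted p = 8.62e-12). The other arm, miR-532-5p, had 1, 2 and 4 reads and a change of -3.84 ± 0.53 (adjusted p = 2.53e-07), or -4.65 without AGO1/2/3-null replicate 3. The miR-660-5p strand had 4, 7 and 7 reads, more than either arm of miR-532, and a change of -2.23 ± 0.44 (adjusted p = 0.000134). The miR-500a-3p change was -3.21 ± 0.76 (adjusted p = 0.00159) on 1, 0 and 1 reads, or -3.82 without replicate 1 of that knockout.

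The fifth strand was miR-502-3p, with 1, 3 and 0 reads and a change of -2.17 ± 0.77 (edgeR adjusted p = 0.0434). That call was lost without AGO1/2/3-null replicate 1 (adjusted p = 0.0854) or replicate 3 (0.163), and without WT replicate 1 (0.0988) or replicate 2 (0.0511), while without AGO1/2/3-null replicate 2 it was -3.48. Scaled by the miRNA total alone it was also lost, at -1.07 (edgeR adjusted p = 0.310). On that scale 4 strands were called lower, with miR-532-3p at -3.79 and miR-660-5p at -1.09. The median of all miRNAs was 1.30 there, and 979 of 1990 were called. Between AGO1/2/3-null and AGO1/2-null the test called 1 of 9 strands, miR-532-3p at -2.56 ± 0.49 (adjusted p = 0.000607), where 4.22% of all miRNAs were called (0.452% higher and 3.77% lower). The other 8 strands of the cluster lay between -1.43 and -0.14 in that comparison and did not pass.

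In the TNRC6 knockouts the rare arm of miR-660 rose, and the abundant strands miR-532-3p, miR-532-5p and miR-660-5p did not pass the threshold, at -0.15 to 0.64. Loss of TNRC6A gave 1 of 9 strands called, where 42% of all miRNAs were called (23.7% higher and 18.2% lower). Loss of TNRC6B gave 2 of 9, where 42.4% were called (23.7% higher and 18.6% lower). With both lost it was 2 of 9, where 43.9% were called (24.9% higher and 19% lower). These called strands were all higher. The 3 comparisons share the WT libraries, so their directions are not independent.

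The strand raised in all 3 was miR-660-3p, the passenger arm of its hairpin in WT. Its reads rose from 1, 0 and 3 in WT to 13, 28 and 19 without TNRC6A, 11, 19 and 8 without TNRC6B and 10, 20 and 25 without either, with no overlap with WT. In edgeR the changes were 3.40 ± 0.61 (adjusted p = 1.53e-05), 3.03 ± 0.64 (0.000174) and 2.96 ± 0.62 (0.000158). They rest on 4 WT reads in all: without WT replicate 3 they became 4.57, 4.20 and 4.14, and without WT replicate 2 they were 2.83, 2.46 and 2.39. The strand met the low-count filter only through the TNRC6 knockouts, and no other whole-cell library held over 5 of its reads. These adjusted p-values are therefore no independent support for the rise.

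The 3p arm of miR-362 had 4, 9 and 8 reads in WT, 14, 25 and 20 where TNRC6B was lost and 23, 26 and 23 where both were. Its changes were 1.39 ± 0.45 (edgeR adjusted p = 0.0117) and 1.097 ± 0.45 (adjusted p = 0.0432). The first call was lost without TNRC6B-null replicate 3 (adjusted p = 0.0543) or WT replicate 1 (0.1), and the second without TNRC6A/B-null replicate 1 (0.0874) or replicate 2 (0.206), and without WT replicate 1 (0.241), replicate 2 (0.0539) or replicate 3 (0.0896). In TNRC6A-null miR-362-3p had 18, 14 and 7 reads, which overlapped WT.

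Scaled by the total of all counted RNAs, on which the median of all miRNAs was higher by 0.55 to 0.79 in the 3 TNRC6 knockouts, the counts of strands called higher were 6, 4 and 5. Of the 1990 miRNAs tested, 951, 911 and 1026 were called there in TNRC6A, TNRC6B and TNRC6A/B-null. On that scale miR-660-5p was at 35.6, 24.8 and 14.8 RPM in TNRC6A-null and 33.5, 24.2 and 27 in TNRC6A/B-null, all above the WT values.

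**Figure D2:**
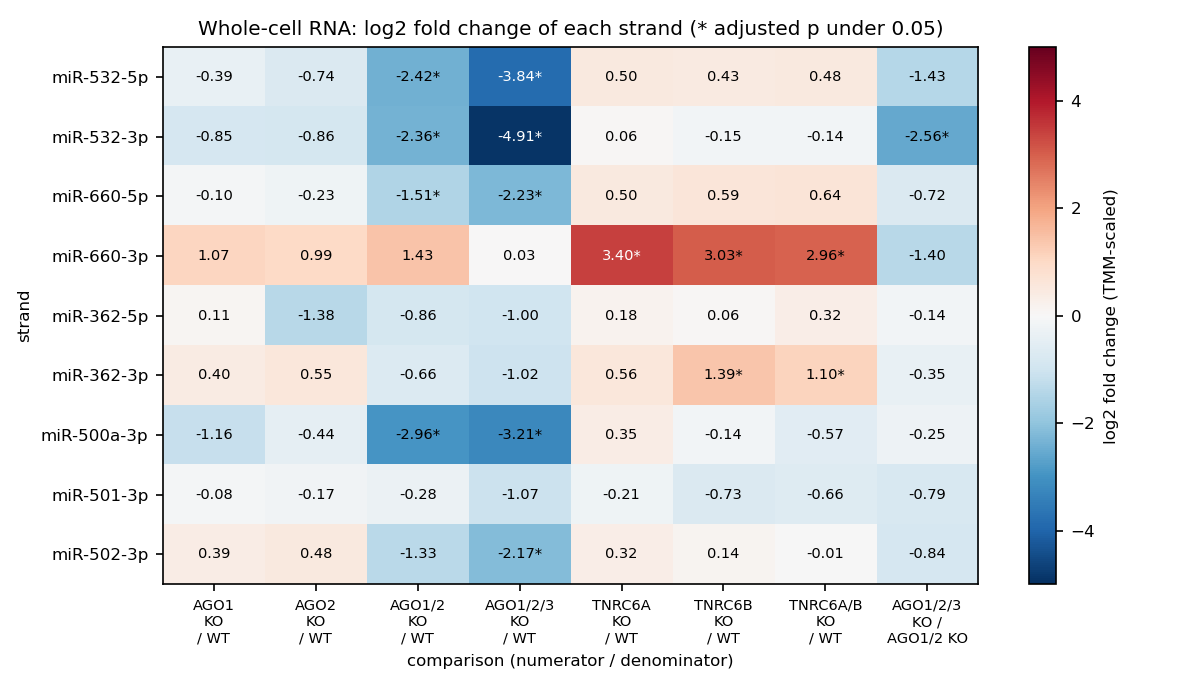
Log2 fold change of each strand (rows) in the 8 whole-cell comparisons (columns) with TMM scaling; an asterisk marks an adjusted p under 0.05 in edgeR. The called falls are in the AGO1/2 and AGO1/2/3-null columns, down to -4.91 for miR-532-3p, and in the column between these knockouts (miR-532-3p at -2.56). The largest rises are those of miR-660-3p in the TNRC6 knockouts, 2.96 to 3.40.

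The arms of miR-660 changed balance. Of the reads of that hairpin's arms, 97.7% were 5p in WT whole-cell RNA (173 of the 5p and 4 of the 3p strand, exact 95% interval 94.3% to 99.4%). Without TNRC6A the 5p share was 83.7% (79.5% to 87.3%), without TNRC6B it was 87.8% (83.6% to 91.2%), and without either 89.2% (86.1% to 91.7%). None of these 3 intervals, which cover counting error only, reached the WT interval. In AGO1 and AGO2-null the 5p share was 94.9% and 94.5%, with intervals that overlapped that of WT. In AGO1/2-null it was 84.1% (69.9% to 93.4%, on 37 reads of the 5p and 7 of the 3p strand), an interval that did not reach that of WT either.

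In whole-cell RNA only the miR-532 hairpin had enough reads for the limma test of the 5p to 3p ratio, and it was not called in any of the 8 comparisons, with changes from -0.07 to 1.06. Of the 147 hairpins tested there, 12.9% were called in AGO1-null, 1.36% in AGO2-null, 44.9% in AGO1/2-null, 61.9% in AGO1/2/3-null and 29.3% between the last pair. In the TNRC6A, TNRC6B and TNRC6A/B knockouts 45.6%, 38.8% and 40.8% were called. With lower minimum counts, chosen after the data were seen, miR-660 could be fitted too. It met that minimum only through its 3p reads in the TNRC6 knockouts, so this fit is no independent support for their shift. Its log2 ratio changed by -3.01 ± 0.81 in TNRC6A-null (limma adjusted p = 0.00558, 38.7% of 351 hairpins called), by -2.50 ± 0.81 in TNRC6B-null (adjusted p = 0.0185, 35.6% called) and by -2.38 ± 0.81 in TNRC6A/B-null (adjusted p = 0.0249, 37.6% called). It was also called in AGO1/2-null at -3.08 ± 0.81 (adjusted p = 0.00887, 19.9% called) and in AGO1/2/3-null at -2.50 ± 0.81 (adjusted p = 0.0184, 35.3% called). Those last values rest on 37 and 18 reads of the 5p arm and 7 and 2 of the 3p arm, and the counting interval of the 5p share in AGO1/2/3-null, 68.3% to 98.8%, held the WT share.

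**Figure D3:**
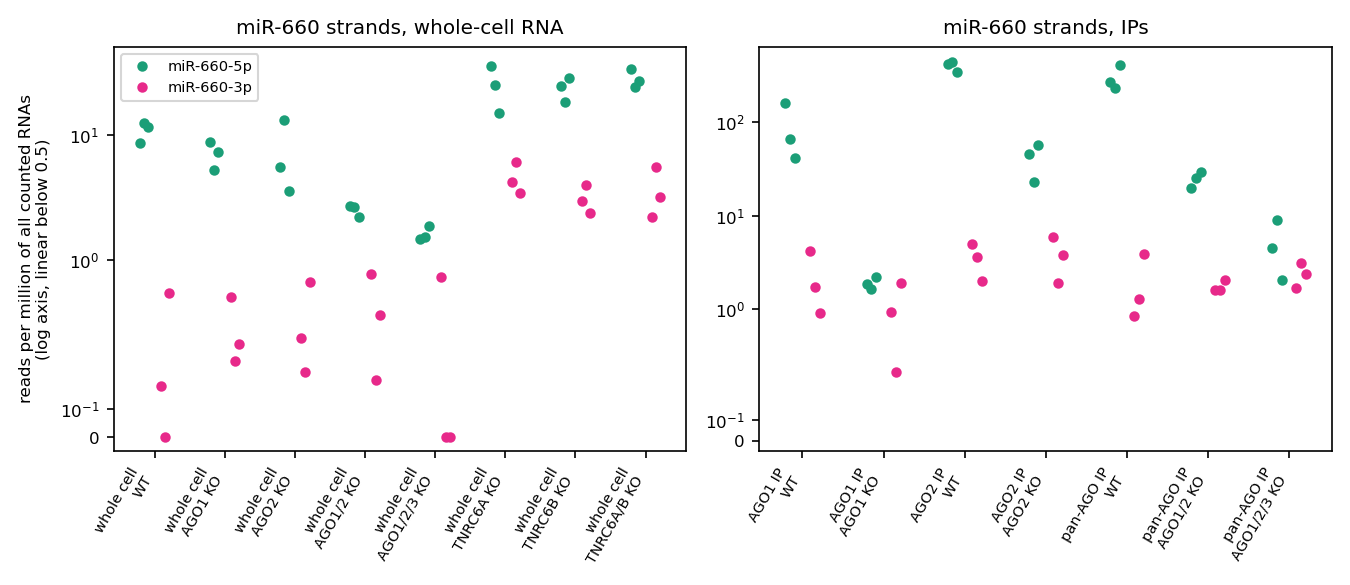
RPM (reads per 1000000 of all counted RNAs, a log axis that is linear below 0.5) of miR-660-5p and miR-660-3p in each library of the whole-cell groups (left) and IP groups (right). The 3p arm has 2.19 to 6.04 RPM in the TNRC6 knockouts, and at most 0.769 in the other whole-cell groups; in the AGO1 IP of AGO1-null and the pan-AGO IP of AGO1/2/3-null the points of the arms lie close together.

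The strands were recovered with each Argonaute antibody. Summed over the 9, the AGO1 IP held 354 ± 293 RPM in WT and 17.1 ± 2.24 in AGO1-null, 20.7-fold more in WT, or 11.0-fold without WT replicate 1 (an alternative chosen after the data were seen). The AGO2 IP held 1246 ± 211 RPM in WT and 303 ± 130 in AGO2-null, 4.12-fold more in WT, and neither pair overlapped (exact p = 0.1 each, the smallest possible). The WT libraries of the AGO1 IP differed widely, with 1969 reads of the 9 strands in replicate 1 and 684 and 628 in the other two. The miRNA share of all counts was 17.4% ± 8.49 in WT against 1.70% ± 0.225 in AGO1-null, and 81.8% ± 0.493 in WT against 19.3% ± 3.66 in AGO2-null. As a share of miRNA counts in the AGO1 IP, the 9 strands were at 0.183% ± 0.0659 in WT and 0.102% ± 0.0223 in AGO1-null. These shares overlapped (exact permutation p = 0.2).

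With the AGO1 antibody, 7 of 9 strands were higher in WT than in AGO1-null and 0 lower, where 13.8% of all miRNAs were called (12.8% higher and 0.95% lower). The main arm miR-660-5p had 465, 196 and 186 reads in WT and 4, 5 and 8 in AGO1-null, a change of 5.22 ± 0.65 (edgeR adjusted p = 1.08e-07). The miR-532-5p strand had 342, 96 and 107 reads against 4, 4 and 4, and changed by 5.05 ± 0.79 (adjusted p = 4.41e-06). Its partner miR-532-3p had 779, 203 and 168 reads against 19, 20 and 15, and changed by 3.94 ± 0.69 (adjusted p = 2.86e-05).

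Of the near-identical strands, miR-502-3p had 82, 15 and 14 reads in WT and 0, 0 and 1 in AGO1-null. Its fitted change of 6.10 ± 1.04 (edgeR adjusted p = 1.71e-05) depends on that single read and was 4.52 without WT replicate 1 and 8.37 without AGO1-null replicate 3. The miR-500a-3p change was 5.12 ± 0.84 (adjusted p = 9.98e-06), on 1, 1 and 0 reads in AGO1-null, and 4.399 without replicate 3 of that knockout. The miR-501-3p change of 2.88 ± 0.67 (adjusted p = 0.00121) was lost without WT replicate 1, at 1.38 with an adjusted p of 0.19, and was 3.57 without AGO1-null replicate 3. The miR-362-3p strand changed by 3.53 ± 0.57 (adjusted p = 7.41e-06).

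Without WT replicate 1, miR-532-3p, miR-532-5p, miR-660-5p and miR-500a-3p changed by 2.64, 3.96, 4.44 and 4.08, and 6 strands were called. The strands that did not pass were miR-362-5p, with 18, 32 and 19 reads against 2, 7 and 13, and miR-660-3p, with 12, 5 and 4 reads against 2, 1 and 7. Scaled by the miRNA total alone, on which the median of all miRNAs was -3.07 rather than -0.16, 6 strands were called, 4 higher and 2 lower in WT, the lower ones being miR-362-5p (-1.66, edgeR adjusted p = 0.0130) and miR-660-3p (-2.47, adjusted p = 0.00451). The changes of miR-532-3p (0.72, edgeR adjusted p = 0.156) and miR-362-3p (0.54, adjusted p = 0.318) kept their direction there but no longer passed. That of miR-501-3p turned to -0.43 (edgeR adjusted p = 0.529). On that scale 2313 of the 2632 miRNAs tested were called.

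With the AGO2 antibody, 8 of 9 strands were higher in WT and 0 lower, where 44.1% of all miRNAs were called (25.1% higher and 19% lower). The AGO2-null libraries still held many reads: miR-660-5p had 3601, 3813 and 2961 in WT and 232, 135 and 336 in AGO2-null, a change of 3.998 ± 0.57 (edgeR adjusted p = 1.67e-06). That was the largest change of the 9. The miR-532-3p strand had 4320, 3262 and 2828 reads against 720, 423 and 712, and changed by 2.57 ± 0.63 (adjusted p = 0.00145). Its partner miR-532-5p changed by 2.42 ± 0.63 (adjusted p = 0.00259), or by 3.32 without AGO2-null replicate 1, and miR-362-5p, miR-500a-3p, miR-501-3p and miR-502-3p by 2.24 to 2.74.

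The smallest called change was that of miR-362-3p, 1.53 ± 0.48 (edgeR adjusted p = 0.0104), which was lost without AGO2-null replicate 2 (adjusted p = 0.0959). The 9th strand, miR-660-3p, had 42, 31 and 17 reads against 30, 11 and 22 and did not pass. These directions depend on the scale: with the miRNA total alone 7 of the 8 called strands turned, to between -1.23 and -0.06, and 1 strand was called higher and 2 lower in WT (miR-362-3p and miR-660-3p), while the median of all miRNAs stood at -3.18. On that scale 2114 of the 2632 miRNAs tested were called. As a share of miRNA counts the 9 strands were at 0.152% ± 0.0265 in WT and 0.152% ± 0.0421 in AGO2-null.

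Against each other in WT, the AGO1 IP had lower TMM-scaled levels than the AGO2 IP for 9 of 9 strands, where 45.7% of all miRNAs were called (20.2% higher and 25.5% lower). The changes ran from -3.14 ± 0.55 for miR-660-5p (edgeR adjusted p = 2.28e-05) to -1.64 ± 0.53 for miR-660-3p (adjusted p = 0.0113). The latter was lost without AGO1 IP replicate 2 (adjusted p = 0.0681) or replicate 3 (0.11), or without AGO2 IP replicate 1 (0.0849). With the total of all counted RNAs 5 strands were called lower and 0 higher, where 1620 of 2632 miRNAs were called. The order depends on the scale: as a share of miRNA counts the 9 strands were at 0.183% ± 0.0659 in the AGO1 IP and 0.152% ± 0.0265 in the AGO2 IP, which overlapped. With the miRNA total alone 7 of 9 strands turned, 3 of them called higher in the AGO1 IP, and the median of all miRNAs moved from 0.35 to 3.52. There 2196 of the 2632 miRNAs tested were called. Without AGO1 IP replicate 1 the TMM-scaled changes of miR-532-3p, miR-501-3p and miR-502-3p were -3.86, -3.53 and -4.24, in place of -2.66, -2.12 and -2.74, and those of miR-500a-3p, miR-532-5p, miR-660-5p and miR-660-3p were -2.79, -4.06, -3.82 and -2.35.

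The pan-AGO antibody recovered 728 ± 354 RPM of the 9 strands from WT, 100.3 ± 34.99 from AGO1/2-null and 21.5 ± 9.35 from AGO1/2/3-null. Neither knockout overlapped WT (exact p = 0.1 each). As a share of miRNA counts the strands were at 0.169% ± 0.0353, 0.0499% ± 0.00241 and 0.0305% ± 0.0129, again with no overlap with WT. In WT, replicate 3 held 7674 reads of the 9 strands and the other two 2745 and 2610.

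The pan-AGO IP of AGO1/2-null had 6 of 9 strands lower than that of WT and 0 higher, where 10.3% of all miRNAs were called (1.63% higher and 8.7% lower). The median of the 9 was -2.00, beside -0.02 over all miRNAs. The largest change was that of miR-660-5p, from 1295, 1277 and 2776 reads to 74, 113 and 72, at -3.62 ± 0.56 (edgeR adjusted p = 2.75e-05). The miR-532 arms changed by -2.96 ± 0.65 (miR-532-3p, adjusted p = 0.00197, and -2.12 without WT replicate 3) and -2.78 ± 0.65 (miR-532-5p, adjusted p = 0.00407). The miR-362 arms changed by -2.15 ± 0.49 (miR-362-3p, adjusted p = 0.00316) and -1.79 ± 0.45 (miR-362-5p, adjusted p = 0.00705).

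The call of miR-501-3p at -2.00 ± 0.58 (edgeR adjusted p = 0.0186) was lost without AGO1/2-null replicate 1 (adjusted p = 0.0875) or replicate 3 (0.0832), or without WT replicate 3 (0.126). The strands that did not pass were miR-502-3p (adjusted p = 0.0505), miR-500a-3p (0.0926) and miR-660-3p (0.867). With the miRNA total alone 3 strands were called lower, on a scale on which the median of all miRNAs was 1.00. There 348 of the 2632 miRNAs tested were called.

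In the pan-AGO IP of AGO1/2/3-null 8 of 9 strands were lower and 0 higher, where 26.7% of all miRNAs were called (8.89% higher and 17.9% lower). The median of the 9 was -4.42, beside -0.0023 over all miRNAs. The reads of miR-660-5p were down to 8, 20 and 6, a change of -6.00 ± 0.65 (edgeR adjusted p = 8.16e-09). Those of miR-532-5p were down to 2, 7 and 0, a change of -6.25 ± 0.83 (adjusted p = 3.22e-07), and those of miR-532-3p to 11, 13 and 6, a change of -5.51 ± 0.75 (adjusted p = 5.26e-07). Without WT replicate 3 the last was -4.59. The other called strands changed by -4.70 (miR-362-3p) to -2.15 (miR-362-5p), the latter turning to 0.55 with the miRNA total alone, where the median of all miRNAs was 2.52. On that scale 5 strands were called lower and 1 higher, miR-660-3p at 2.94 (edgeR adjusted p = 0.000533). Over all miRNAs 1827 of the 2632 tested were called there. Without AGO1/2/3-null replicate 2 the changes of miR-362-3p, miR-501-3p, miR-532-5p and miR-660-5p were -5.39, -5.67, -7.67 and -6.59, and without WT replicate 3 that of miR-502-3p was -3.44 in place of -4.03.

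The strand that did not pass was low throughout: miR-660-3p had 4, 7 and 26 reads in WT, 6, 7 and 5 in AGO1/2-null and 3, 7 and 7 in AGO1/2/3-null, a log2 change of 0.19 ± 0.60 in the last (edgeR adjusted p = 0.872). Changes of the order of that SE were not detectable at this depth. Its value depends on the scale. Per 1000000 miRNA counts it was at 4.45 ± 2.50 in WT and 41.2 ± 33.7 in AGO1/2/3-null, and its mean share of the reads of the 9 strands was 0.251% and 12.1%, with no overlap (exact two-sided permutation p = 0.1, the smallest possible).

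Set against whole-cell RNA in WT, the pan-AGO IP was richer in 6 of the 8 strands tested and poorer in 0, where 63.1% of all miRNAs were called (28.1% higher and 35% lower). The 9th strand, miR-660-3p, had too few reads for the test. The largest change was that of miR-362-3p at 4.94 ± 0.43 (edgeR adjusted p = 3.9e-07), followed by miR-660-5p at 3.81 ± 0.31 (adjusted p = 2.17e-07). In RPM these were at 66.6, 55.8 and 125 (miR-362-3p) and 272, 232 and 410 (miR-660-5p) in the IP, and at 0.731, 1.76 and 1.46 and 8.59, 12.3 and 11.5 in whole-cell RNA.

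The other called changes in that comparison were smaller, 1.87 ± 0.33 for miR-532-5p, 1.57 ± 0.40 for miR-532-3p, 1.55 ± 0.40 for miR-502-3p and 1.46 ± 0.42 for miR-362-5p (edgeR adjusted p = 0.000282, 0.00341, 0.00398 and 0.00771). The last was lost without WT whole-cell replicate 1 (adjusted p = 0.0734). Scaled by the miRNA total alone, 1249 of 1578 miRNAs were called, and the median of all miRNAs was -2.32 in place of -0.35. Of the strands, 2 were called higher and 2 lower. Those called lower were miR-500a-3p (-1.28, edgeR adjusted p = 0.00854) and miR-501-3p (-1.19, adjusted p = 0.00775). On that scale miR-532-5p, miR-532-3p, miR-502-3p and miR-362-5p turned to between -0.52 and -0.16, and miR-362-3p and miR-660-5p kept their direction.

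**Figure D4:**
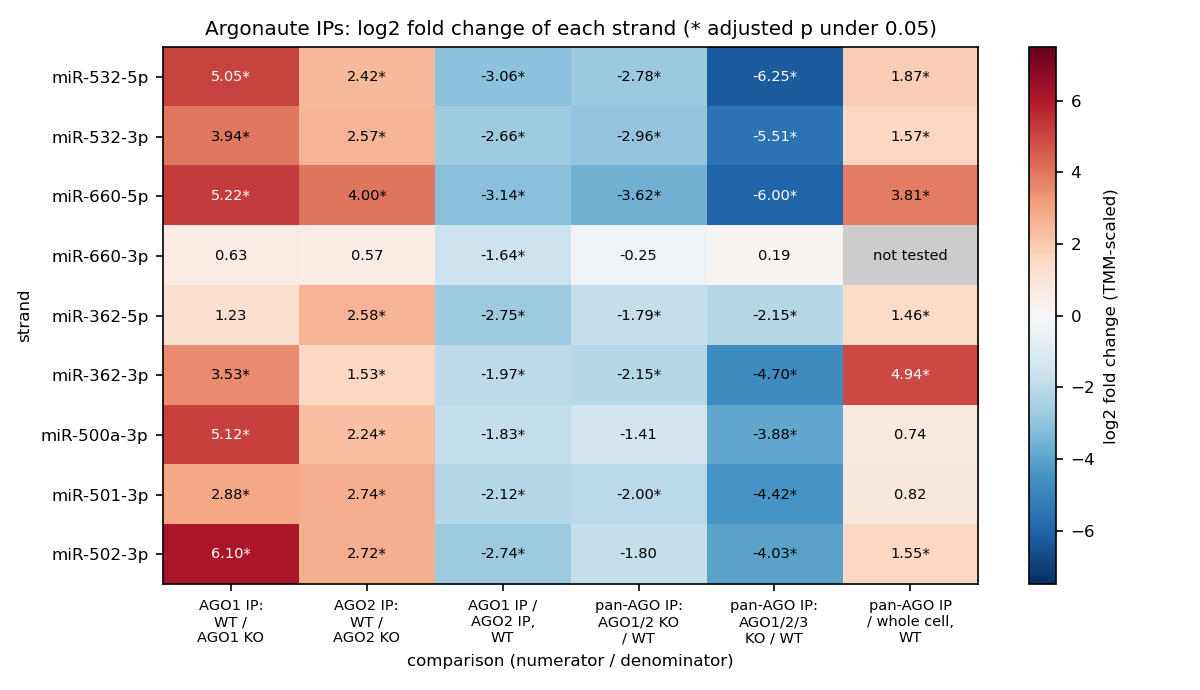
Log2 fold change of each strand (rows) in the 6 comparisons with IP libraries (columns) with TMM scaling; an asterisk marks an adjusted p under 0.05 in edgeR, and the grey cell was not tested. Values run from -6.25 for miR-532-5p in the pan-AGO IP of AGO1/2/3-null to 6.10 for miR-502-3p in the AGO1 IP; the miR-660-3p row stays within 0.63 of 0 except between the AGO1 and AGO2 IPs.

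The arm balance of miR-660 was the one that changed in all 5 comparisons among the IPs. The 5p arm made up 99.1% of its reads in the AGO2 IP of WT (exact 95% interval 98.9% to 99.3%), 99.3% in the pan-AGO IP of WT (99.1% to 99.5%) and 97.6% in the AGO1 IP of WT (96.3% to 98.5%). In the knockout IPs it was 63% in the AGO1 IP of AGO1-null (42.4% to 80.6%, of 27 reads by 17 and 10), 91.8% in the AGO2 IP of AGO2-null (89.6% to 93.6%), 93.5% in the pan-AGO IP of AGO1/2-null and 66.7% in that of AGO1/2/3-null (52.1% to 79.2%).

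In the limma test the log2 ratio of miR-660 was higher in WT by 4.28 ± 0.54 in the AGO1 IP (adjusted p = 1.16e-06, 53.8% of 221 hairpins called) and by 3.45 ± 0.54 in the AGO2 IP (adjusted p = 3.33e-05, 47.5% called). In the pan-AGO IP it changed by -3.71 ± 0.54 in AGO1/2-null (adjusted p = 8.33e-05, 36.7% called) and by -6.59 ± 0.54 in AGO1/2/3-null (adjusted p = 4.04e-09, 61.1% called). Between the AGO1 and AGO2 IPs of WT it was -1.66 ± 0.54 (adjusted p = 0.0193, 39.8% called), which was lost without AGO1 IP replicate 2 (adjusted p = 0.0591), or without AGO2 IP replicate 2 (0.0502) or replicate 3 (0.0908).

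The other hairpins that passed were miR-362, miR-502 and miR-532, in 5 results in all. The miR-362 ratio was lower in WT by -2.11 ± 0.58 in the AGO1 IP (limma adjusted p = 0.004) and higher by 2.67 ± 0.58 in AGO1/2/3-null in the pan-AGO IP (adjusted p = 0.000516). There its 5p share was 12% in WT and 43.9% in the knockout. The miR-502 ratio changed by -4.60 in the AGO1 IP, on 0, 0 and 1 reads of the 3p arm in the knockout, and by 2.64 in the pan-AGO IP of AGO1/2/3-null, on 1, 2 and 3 reads. The first was -3.69 without WT replicate 1, -5.34 without WT replicate 3 and -5.23 without AGO1-null replicate 3; the second was 3.36 without AGO1/2/3-null replicate 3, and the miR-362 change there was 3.45 without replicate 2. The miR-532 ratio changed by -1.44 ± 0.61 in the pan-AGO IP of AGO1/2/3-null (adjusted p = 0.0437), and this was lost without any library of that comparison but AGO1/2/3-null replicate 2 and WT replicate 3, at -0.72 without AGO1/2/3-null replicate 3, and stood at -2.14 without replicate 2. It was also lost with a pseudocount of 2, at -0.67 (adjusted p = 0.24), and without any of 5 libraries of other IP groups, at adjusted p of 0.0506 to 0.0520.

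Shares of the cluster's own reads need no library scaling. In WT whole-cell RNA miR-532-3p made up 50.1%, 49.0% and 41.0% of the reads of the 9 strands, and miR-660-5p 13.5%, 17.3% and 17.2%. In the WT pan-AGO IP miR-660-5p led with 47.2%, 48.9% and 36.2%, and miR-532-3p had 19.5%, 19.9% and 33.4%. The groups did not overlap for either strand (exact two-sided permutation p = 0.1, the smallest possible). The mean share of miR-660-5p was 32.7% ± 3.03 in the AGO2 IP and 27.3% ± 3.22 in the AGO1 IP of WT, both between the whole-cell and the pan-AGO values.

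The share of miR-362-3p also differed between sources in WT, at 1.93% ± 0.695 of the 9 strands in whole-cell RNA, 5.27% ± 0.511 in the AGO2 IP, 12.0% ± 5.10 in the AGO1 IP and 11.5% ± 0.358 in the pan-AGO IP. In whole-cell RNA the share of miR-532-3p was 46.7% ± 5.00 in WT, 31.7% ± 5.84 in AGO1/2-null and 11.9% ± 1.26 in AGO1/2/3-null, with no overlap among the 3 groups (exact p = 0.1 for each pair). In the AGO1/2/3-null libraries the 9 strands had 23, 25 and 19 reads, so single reads move these shares by several percentage points.

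**Figure D5:**
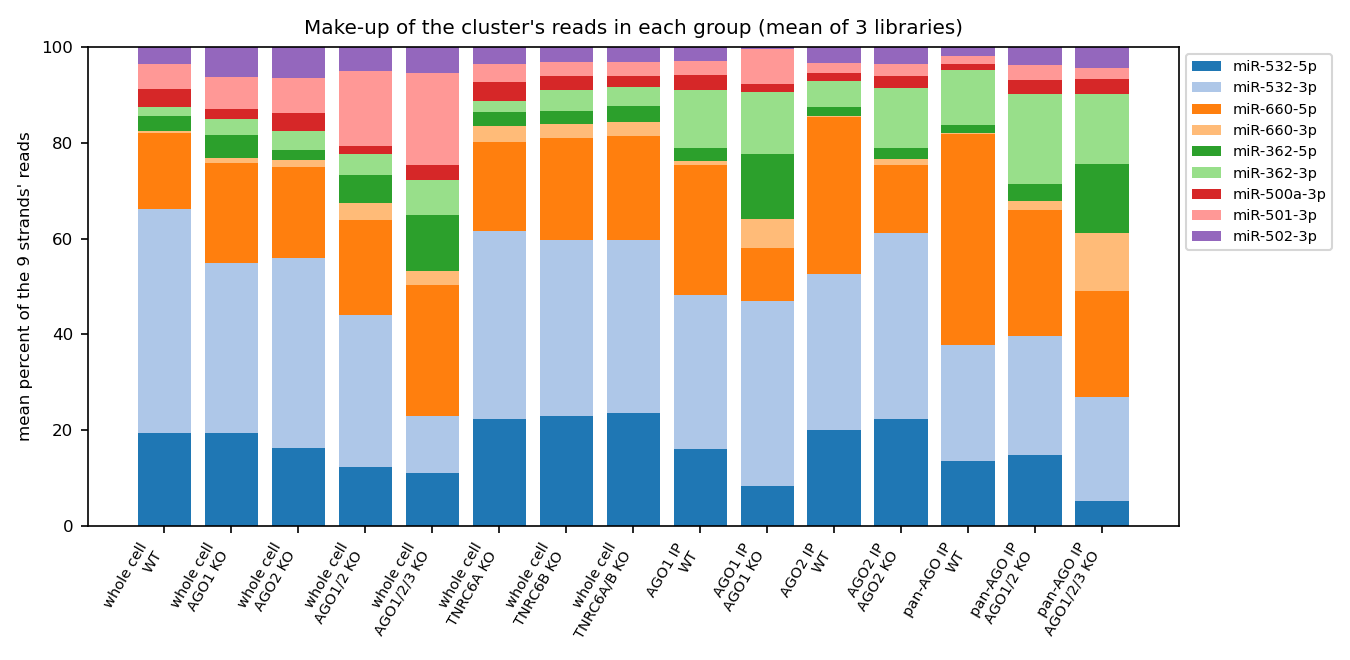
Mean percent of the 9 strands' reads held by each strand in each of the 15 groups (stacked bars, 3 libraries each). The miR-532-3p part shrinks from 46.7% in WT whole-cell RNA to 11.9% in AGO1/2/3-null, and miR-660-5p takes 44.1% in the pan-AGO IP of WT.

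The 4 variant entries that hold the miR-501-3p reads also differed in their balance. Variant C held 69.6% of them in WT whole-cell RNA (39 of 56 reads, exact 95% interval 55.9% to 81.2%), 94.95% in the AGO2 IP of WT (677 of 713, 93.1% to 96.4%) and 91.0% in the pan-AGO IP of WT. In AGO1/2-null whole-cell RNA it held 21.4% (6 of 28, 8.3% to 41%). That interval lies below the one of WT. The base each variant stands for was not analysed here.

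Of the 7 other strands of the cluster, 4 reached 50 reads in a library. The largest, miR-188-5p, had 53, 61 and 60 whole-cell reads in WT and was lower in AGO1-null at -0.93 ± 0.30 (edgeR adjusted p = 0.0363), in AGO1/2-null at -1.37 ± 0.32 (0.00315) and in AGO1/2/3-null at -2.81 ± 0.40 (4.03e-07). Its difference between the pan-AGO IP and whole-cell RNA did not pass, at -0.14 ± 0.38 (adjusted p = 0.758). The others had their highest counts in the AGO2 IP of WT, with 114, 72 and 84 reads of miR-501-5p, 77, 81 and 31 of miR-188-3p and 80, 37 and 33 of miR-502-5p. In whole-cell TNRC6B-null, miR-502-5p was lower at -1.44 ± 0.59 (adjusted p = 0.0475) on 3, 4 and 1 reads.

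Fragments of the CLCN5 transcript itself were too few to follow the host gene, with 10, 9 and 7 whole-cell reads in WT, 2, 3 and 3 in AGO1/2/3-null and 605 over all 45 libraries. That was 1.62 ± 0.301 RPM in WT and 0.728 ± 0.0690 in AGO1/2/3-null, and small RNA libraries do not measure its mRNA level.

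Over the 24 whole-cell libraries, the miRNAs outside the cluster whose log2 CPM (reads per 1000000 miRNA counts, TMM-scaled) was most like that of miR-532-3p were miR-454-3p, miR-196a-5p, miR-342-3p, miR-100-5p and miR-98-5p, with Pearson r of 0.986, 0.974, 0.971, 0.970 and 0.969 among 561 miRNAs of at least 100 CPM. Within the cluster r was 0.92 for miR-188-5p, 0.92 for miR-532-5p, 0.87 for miR-660-5p and 0.43 for miR-501-3p. The remaining members lay between 0.51 (miR-362-5p) and 0.75 (miR-500a-3p). Outside the members, miR-500b-3p was at -0.05 and miR-502-5p at -0.36. The 5 outside miRNAs were the highest of those 561, while the cluster strands met no minimum level. In WT, miR-660-3p was at 5.76 CPM and miR-500b-3p at 9.85 CPM, and such low counts limit r. The r of the cluster strands thus cannot be ranked against those of the outside miRNAs. These values are descriptions: the points share libraries, scaling factors and the 8 genotypes. For scale, miR-454-3p was at 2208 ± 238 CPM (TMM-scaled) in WT, 498 ± 189 in AGO1/2-null and 120.3 ± 61.1 in AGO1/2/3-null.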

How the data were processed

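TruSeq Small RNA kits were used on Trizol-extracted whole-cell RNA or from IPs of whole-cell extract, per the labels. The authors deposited counts per RNA feature, 1 file per library, made with cutadapt 1.16 and Bowtie 1.1.2 on GRCh38, per the submitters' processing notes; settings are not given in the sources. No molecular identifiers were reported, so intervals cover counting error only. Members and lists were chosen with earlier results of these data known. Counts of variant entries were summed to their miRNA, and the "hsa-" prefix was dropped. The cluster strands, the other strands reaching 50 counts in a library, and the 5 miRNAs most correlated with the most abundant strand are named.

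For tests, R 4.3.3 with edgeR 4.0.16 was used: low rows were dropped by filterByExpr at a minimum count of 10 and a minimum total of 15, and TMM scaling preceded the quasi-likelihood F test. The 14 comparisons came from 3 fits, of 24 whole-cell libraries, of 21 IP libraries, and of 6 WT libraries for pan-AGO IP against whole cell. SE is |log2 fold change| divided by the root of F. Arm ratios were tested in limma 3.58.1 on the log2 ratio of 5p to 3p counts, each plus 0.5, where the minor arm averaged 10 counts or more and both together 50 or more. Shares and sums were compared with exact permutation tests. The fits were tested on simulated counts in which a known set of miRNAs or arms changed and the rest of each library kept the same make-up. Those simulations do not cover the shifts of scale between the IP libraries, so they do not bear on the choice of scale. Alternatives, among them DESeq2 1.42.0, are given in the closing section. Lowered minimum counts for arm ratios (5 and 20) were chosen after seeing the data. Tables and plots used Python 3.11.15, pandas 2.3.3, scipy 1.17.1 and matplotlib 3.10.9.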

Additional observations from a re-analysis of the deposited data

Results flagged for a closer look

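The share of miR-660-5p among the 9 strands moved in opposite directions in whole-cell RNA and in the pan-AGO IP, and every library of each knockout lay on its own side of WT. In AGO1/2-null the mean share was higher by 3.77 percentage points in whole-cell RNA and changed by -17.9 points in the pan-AGO IP. In AGO1/2/3-null the differences were 11.4 and -22.0 points. The rise in whole-cell RNA was not particular to these knockouts. It was 4.88 points in AGO1-null and 5.80 in TNRC6A/B-null, also with no overlap with WT. In AGO2-null, TNRC6A-null and TNRC6B-null it was 3.17, 2.52 and 5.31 points, with overlap. The difference between the 2 sources was not tested, and the whole-cell knockout shares rest on 10 to 14 reads of miR-660-5p in AGO1/2-null and 4 to 7 in AGO1/2/3-null.

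Of the entries for whole hairpins, which no comparison used, 3 were picked out for more reads in the AGO2 IP of WT than in AGO2-null. The mir-362 entry had 9.17 RPM in WT (82, 90 and 63 reads) and 1.82 in AGO2-null (11, 3 and 16 reads). The mir-501 entry had 3.17 RPM in WT and 1.09 in AGO2-null, and the mir-500b entry 0.586 and 0.190. The mir-502, mir-660 and mir-532 entries were also higher in WT, at 1.05, 0.970 and 0.507 RPM against 0.446, 0.190 and 0.114. The mir-188 entry had 2 reads in WT and 0 in AGO2-null. The mir-500a entry was not higher in WT, at 0.630 and 0.684 RPM. All mature miRNAs together made up 81.8% of counts in WT and 19.3% in AGO2-null.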

How the results depend on the processing

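The counts of strands called in AGO1/2-null, AGO1/2/3-null, AGO1/2/3-null against AGO1/2-null, the AGO1 IP, the pan-AGO IP of AGO1/2/3-null and the pan-AGO IP against whole-cell RNA stayed within 1.5 times of those reported under every alternative run, but not their directions: with the miRNA total alone the AGO1 IP had 4 called strands higher and 2 lower, with 1 higher and 5 lower in the pan-AGO IP of AGO1/2/3-null, and 2 higher and 2 lower in the pan-AGO IP against whole-cell RNA. The replicate numbers did not pair the libraries (correlations of same-numbered libraries' deviations of -0.168 to 0.394, in no comparison all over 0.1), and with the replicate block the AGO1/2 and AGO1/2/3-null counts stayed at 4 and 5 and all 61 fold changes compared kept their direction and side of the threshold. Scaling moved most. With the total of all counted RNAs the counts were 2 in AGO1-null, 1 in AGO2-null, 6 in TNRC6A-null, 4 in TNRC6B-null, 5 in TNRC6A/B-null and 5 in the AGO1 against the AGO2 IP. Over all miRNAs they were, in the same order, 292, 34, 951, 911 and 1026 of 1990, and 1620 of 2632. In AGO1-null 1 strand was called with RLE factors, with no low-count filter or with DESeq2, in AGO2-null 1 with DESeq2, and in TNRC6A/B-null 1 with the miRNA total alone or with no low-count filter. Over all miRNAs, 211 of 1990 were called in AGO1-null with RLE factors and 820 of 1990 in TNRC6A/B-null with the miRNA total alone. The numbers over all miRNAs with DESeq2 or with no low-count filter are not given here, so those calls cannot be set against them.

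With the miRNA total alone 3 strands were called in the AGO2 IP (1 higher, 2 lower), 3 in the AGO1 against the AGO2 IP and 3 in the pan-AGO IP of AGO1/2-null. The numbers of all miRNAs called in these comparisons are given above. On that scale the following turned. In the AGO1 IP it was miR-501-3p (-0.43). In the AGO2 IP these were miR-362-3p (-1.23), miR-362-5p (-0.21), miR-500a-3p (-0.57), miR-501-3p (-0.0655), miR-502-3p (-0.0647), miR-532-3p (-0.20) and miR-532-5p (-0.23). In the AGO1 against the AGO2 IP these were miR-362-3p (1.29), miR-362-5p (0.62), miR-500a-3p (1.22), miR-501-3p (0.83), miR-502-3p (0.19), miR-532-3p (0.30) and miR-660-3p (1.48). In the pan-AGO IP of AGO1/2/3-null it was miR-362-5p (0.55), and against whole-cell RNA miR-362-5p (-0.52), miR-502-3p (-0.48), miR-532-3p (-0.48) and miR-532-5p (-0.16). A further 12 changes kept their direction with the miRNA total alone but no longer passed the threshold. The medians of all miRNAs moved with this scale as given above, and the cause was not tested.

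Leaving out 1 library at a time, the counts ran from 0 to 1 in AGO1-null, 0 to 0 in AGO2-null, 4 to 4 in AGO1/2-null, 4 to 5 in AGO1/2/3-null, 1 to 1 in TNRC6A-null, 1 to 2 in TNRC6B-null, 1 to 2 in TNRC6A/B-null, 1 to 1 between AGO1/2/3 and AGO1/2-null, 6 to 7 in the AGO1 IP, 7 to 8 in the AGO2 IP, 8 to 9 between them, 5 to 8 and 8 to 8 in the pan-AGO IP of AGO1/2 and AGO1/2/3-null, and 5 to 8 in the pan-AGO IP against whole-cell RNA. Of the cluster's hairpins the count with a changed arm ratio was 0 in whole-cell RNA and 4 in the IPs. It ran from 0 to 1 and from 3 to 6 with 1 library left out, was 1 in whole-cell RNA with a pseudocount of 2 or with the minimum counts of 5 and 20, and 2 in the IPs with minimum counts of 30 and 100, where only 2 hairpins were tested. In WT whole-cell RNA miR-660-3p, miR-362-3p, miR-362-5p, miR-502-3p and miR-500a-3p had mean counts of 1.33, 7, 11, 12.7 and 13.7 reads, which limits their values.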
